A study of Caenorhabditis elegans with 6 samples.

Results

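The genes described here are 36 cell cycle and DNA replication genes of the nematode Caenorhabditis elegans, out of 39875 named genes in the data. They were chosen by gene symbol: a row of the count tables belonged to a gene when its RefSeq transcript record carried that symbol in the RefSeq annotation. Of the 36 genes, 34 had a record, 31 had counts, and all 31 of these were abundant enough to be tested. RNA was taken from whole L1 larvae, the first larval stage, that hatched overnight without food in M9 buffer at room temperature. There were 3 libraries of the wild-type strain N2 and 3 of the double mutant spr-5; met-2, which carries the alleles by101 of spr-5 and n4256 of met-2, each from a pool of larvae whose parents were fed HT115 bacteria. The LSD1-type enzyme SPR-5 removes methyl groups from histone H3 lysine 4, and the SETDB1-type enzyme MET-2 adds them to histone H3 lysine 9. The labels do not tell whether replicates are independent cultures, and every p-value therefore reflects spread among these libraries alone, which may be technical.

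A dividing cell first passes through G1, where cyclin D with CDK4 and cyclin E with CDK2 drive entry into S phase and inhibitors of the CIP/KIP family hold it back. Replication origins are then licensed when ORC, CDC6 and CDT1 load the MCM helicase, and the fork proteins copy the DNA before cyclin A, cyclin B and CDK1, the Aurora and Polo kinases and the kinetochore carry out mitosis. Larvae that hatch without food arrest their development before postembryonic divisions begin, and both somatic precursors and the primordial germ cells stay undivided until food arrives.

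In the double mutant larvae 14 of the 31 tested genes rose and none fell at an adjusted p below 0.05 (edgeR's quasi-likelihood test, not paired by replicate number). The share that rose was 45.2%, while over all 14557 tested records 14.3% rose and 11.7% fell. The median log2 fold change of the 31 genes was 0.42, against -0.01 over all tested records, and single genes ranged from -0.34 (cyb-2.2) to 1.32 (cyb-1). In 25 genes every double mutant library stood above every N2 library, and in 1 gene, orc-2, every one stood below. Such a separation occurred upward in 22.3% and downward in 21.3% of all tested records. Of the 27 genes with at least 10 CPM (counts scaled to library size) on average 14 rose, against 14% of all records at that level. RNA came from whole animals, so more or fewer cells of a type and more or less RNA per cell cannot be told apart.

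The size of the shift was similar in the 3 same-numbered pairs of libraries, with median log2 ratios of the 31 genes of 0.44, 0.51 and 0.49 in pairs 1, 2 and 3. In 27 genes the double mutant library was the higher one in all 3 pairs, and in 1 gene it was the lower one in all 3. The matching share of all tested records is not given here, so these counts have no background. Of the double mutant libraries, replicate 2 gave the highest value for 18 genes, replicate 1 for 11 and replicate 3 for 2. Among the N2 libraries replicate 1 was highest for 17 genes, replicate 2 for 9 and replicate 3 for 5. Scaling mattered: by library size only, without TMM factors, 25 genes rose and none fell. That scaling raised the median of all records by 0.22, to 0.21, and the median of the 31 genes to 0.64. In the same step the rising share of all calls went from 55% to 77.7%, while the share of all tested records that rose is not given here. Leaving out replicate 2 of both groups, an alternative added after the data were seen, left 3 rising genes, cya-1, cyb-1 and knl-1, while the median was 0.47. Over all tested records fewer were called as well in that fit, which has fewer libraries, and the closing section gives the counts. The number of records tested in that fit is not given here. Whether the 3 genes exceed the share of all records that rose in it is therefore left unstated.

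**Figure D1:**
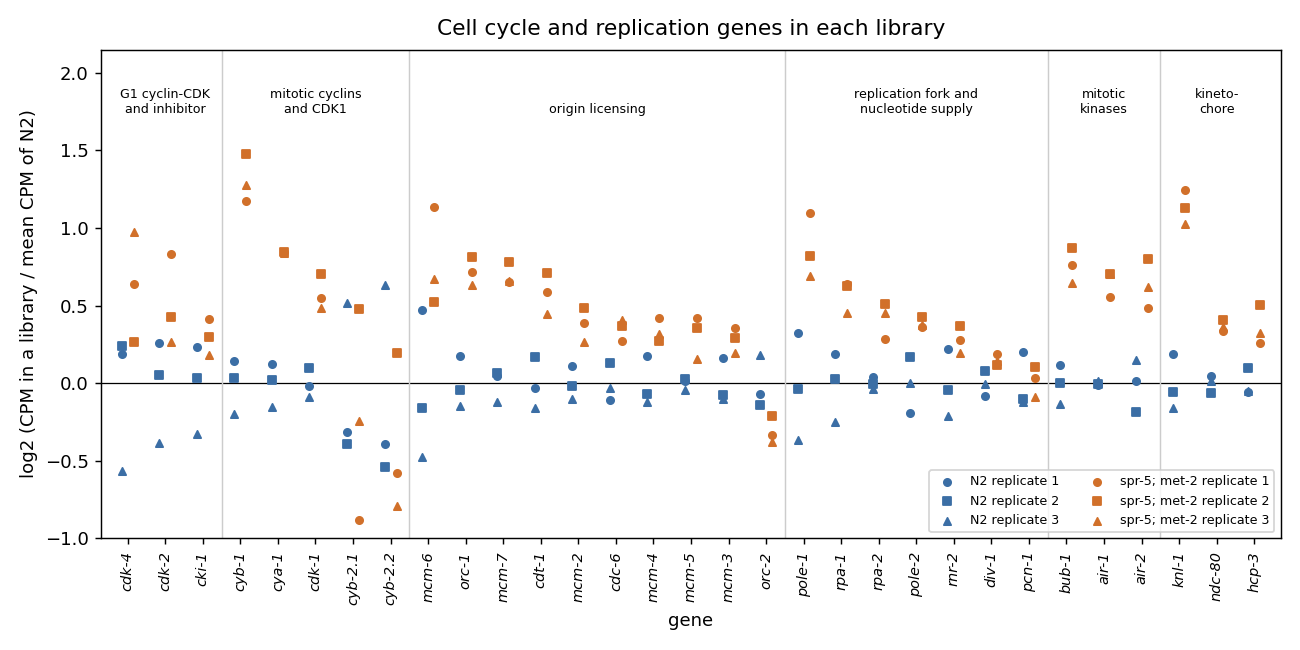
Level of each tested gene in each library, as the log2 ratio of its CPM to the N2 mean of that gene. Genes stand along the horizontal axis, grouped by role, with a colour for each of N2 and spr-5; met-2 and a marker shape for each replicate. Double mutant points lie above all N2 points in 25 of the 31 genes and below them in orc-2.

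Of the genes that act in G1, none passed the test among the 3 that could be tested, and their median log2 fold change was 0.53. The cyclin D gene cyd-1 had no record in the tables used here, and both records of the cyclin E gene cye-1 were listed at 0 counts in all 6 libraries. Such zeros set no upper limit on a level, because reads that fit several records may be missing, which was not tested. Of the 9789 records of genes with several records 62.1% were at 0 throughout, and the share among other records is not given here. The cyclin D partner cdk-4 was near the lower end of detection, at 1.1, 1.14 and 0.651 CPM in N2 replicates 1, 2 and 3 and at 1.5, 1.16 and 1.89 CPM in the double mutant. Its groups were separated by a narrow gap, and the log2 fold change was 0.66 ± 0.35 (SE), with an adjusted p of 0.210 in edgeR's test.

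The gene of the cyclin E partner, cdk-2, stood at 7.91, 6.88 and 5.06 CPM in N2 and at 11.8, 8.88 and 7.97 CPM in the double mutant. The highest N2 library lay just under the lowest double mutant library, and the log2 fold change of 0.53 ± 0.24 did not pass (edgeR adjusted p = 0.154). The CDK inhibitor gene cki-1, a CIP/KIP member known to hold larval precursor cells in G1, was the most abundant of these 3 both in CPM and per length. It gave 37.8, 33.0 and 25.7 CPM in N2 and 42.9, 39.6 and 36.5 CPM in the double mutant, so that the groups overlapped. Its log2 fold change was 0.30 ± 0.17 with an edgeR adjusted p of 0.227.

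Mitotic cyclins and their kinase showed the widest spread of any role. Of 5 tested genes 3 rose, cyb-1, cya-1 and cdk-1, and the close paralogs cyb-2.1 and cyb-2.2 did not pass. The cyclin B gene cyb-1, needed for mitotic divisions in the worm, had 12.9, 12 and 10.2 CPM in the N2 libraries. In the double mutant it had 26.4, 32.6 and 28.4 CPM, so each of these libraries exceeded each N2 library by about the whole N2 level or more. This 2.49-fold difference was the largest among the 31 genes (log2 fold change 1.32 ± 0.16, edgeR adjusted p = 0.000913).

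For cya-1, a cyclin A gene, the N2 libraries gave 18.9, 17.6 and 15.6 CPM and the double mutant libraries 31.2, 31.2 and 31.1 CPM. The double mutant libraries were almost identical to each other and all above N2, and the log2 fold change was 0.84 ± 0.13 (edgeR adjusted p = 0.00328). The reads of cya-1 carry an uncertainty, since its exons overlap 107 bases of dos-1 on the opposite strand and the strand setting of the counting is not given in the sources used here. Of the 36 genes 12 overlap a coding gene in this way. The overlap of cya-1 is the longest, followed by those of mcm-3 (73 bases) and ndc-80 (71 bases). A mitotic kinase gene, cdk-1, had 31.2, 33.9 and 29.8 CPM in N2 against 46.3, 51.6 and 44.3 CPM. It rose 1.5-fold with no overlap between groups (log2 fold change 0.58 ± 0.13, edgeR adjusted p = 0.0121).

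The 2 cyb-2 genes were the only tested mitotic cyclins with a negative estimate, which for cyb-2.1 was 0.08 when scaled by library size only. In N2, cyb-2.1 had 1.15, 1.09 and 2.05 CPM and in the double mutant 0.775, 1.99 and 1.21 CPM, a log2 fold change of -0.12 ± 0.43 (edgeR adjusted p = 0.867). For cyb-2.2 the values were 1.65, 1.49 and 3.36 CPM in N2 and 1.45, 2.48 and 1.25 CPM in the double mutant, with a log2 fold change of -0.34 ± 0.42 (edgeR adjusted p = 0.602). In both genes N2 replicate 3 and double mutant replicate 2 were the highest libraries of their groups, and without N2 replicate 3 both estimates turned positive, at 0.21 and 0.10. Reads that fit both paralogs could be split or lost in counting, so these values are uncertain. The third B-type cyclin gene, cyb-3, was listed at 0 counts in its 2 records in every library.

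Origin licensing was the largest role, with 10 genes, all tested. Of these orc-1, cdt-1 and mcm-7 rose, none fell, and 7 did not pass (median log2 fold change 0.37). The first subunit of the origin recognition complex, orc-1, gave 18, 15.5 and 14.4 CPM in N2 and 26.3, 28.0 and 24.8 CPM in the double mutant. Groups did not overlap, and the log2 fold change was 0.73 ± 0.15 (edgeR adjusted p = 0.00944). Its partner in the complex, orc-2, lay on the other side: 26.9, 25.6 and 32.0 CPM in N2 against 22.4, 24.3 and 21.7 CPM in the double mutant. All double mutant libraries were lower, yet the log2 fold change of -0.30 ± 0.14 did not pass (edgeR adjusted p = 0.161).

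The loading factors were more alike. Values for cdc-6, whose product joins ORC and helps to load the helicase, were 20.9, 24.7 and 22.1 CPM in N2 and 27.2, 29.1 and 29.9 CPM in the double mutant. The groups were separate, and the log2 fold change was 0.35 ± 0.13 (edgeR adjusted p = 0.0927). For cdt-1, whose product brings the helicase to origins and is destroyed once replication begins, N2 gave 14, 16.1 and 12.8 CPM and the double mutant 21.5, 23.4 and 19.5 CPM. It rose with a log2 fold change of 0.58 ± 0.16 (edgeR adjusted p = 0.0297), again without overlap. That call was lost when any single library other than N2 replicate 2 was left out, with edgeR adjusted p from 0.064 to 0.112. It was also lost when a trend with exonic length was removed in the fit with the replicate number as a block (0.0536).

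The 6 MCM genes encode the ring-shaped helicase that unwinds DNA ahead of the fork, with 1 copy of each product per ring. Every one of them was higher in each double mutant library than in each N2 library. Only mcm-7 passed the test: it had 40.1, 40.5 and 35.6 CPM in N2 and 60.8, 66.7 and 61.1 CPM in the double mutant, a 1.62-fold difference (log2 fold change 0.70 ± 0.12, edgeR adjusted p = 0.00421). The 4 genes mcm-2, mcm-3, mcm-4 and mcm-5 formed a narrower band of estimates, from 0.28 to 0.38.

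In mcm-2 the N2 libraries held 46.1, 42.2 and 39.7 CPM and the double mutant libraries 55.9, 59.7 and 51.2 CPM. Its log2 fold change was 0.38 ± 0.12 with an edgeR adjusted p of 0.0544, or 0.0293 with the replicate block. For mcm-3 the values were 65.3, 55.3 and 54.5 CPM against 74.7, 71.4 and 66.9 CPM (0.28 ± 0.12, edgeR adjusted p = 0.129). These 2 genes thus differed in the side of the threshold under the block, while their estimates lay within 1 SE of each other. For mcm-4, N2 gave 68.1, 57.4 and 55.4 CPM and the double mutant 80.8, 72.9 and 75.2 CPM. The log2 fold change of 0.34 ± 0.12 had an edgeR adjusted p of 0.0823, which became 0.0375 with the block and 0.0432 without N2 replicate 1. In both groups mcm-4 was highest in replicate 1. For mcm-5, N2 stood at 65.2, 65.9 and 62.5 CPM and the double mutant at 86.5, 82.6 and 71.9 CPM (0.32 ± 0.12, edgeR adjusted p = 0.0839).

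Relative to its level, mcm-6 varied more between replicates than the other MCM genes. It had 19.0, 12.3 and 9.86 CPM in N2 and 30.2, 19.7 and 21.9 CPM in the double mutant, and replicate 1 was the highest of both groups. Its log2 fold change of 0.80 ± 0.27 had an edgeR adjusted p of 0.0657. The same-numbered pairs gave log2 ratios of 0.67, 0.68 and 1.15, and with the block the adjusted p was 0.00446. It was 0.0178 without N2 replicate 1, and the estimate was then 1.09. Per kilobase of exon the lowest MCM level was that of mcm-6 and the highest that of mcm-5 in both groups. The highest exceeded the lowest by 5.03-fold in N2 (26.7 against 5.31 CPM per kb) and by 3.59-fold in the double mutant (33.2 against 9.26 CPM per kb). Of the 2 RefSeq transcripts of mcm-6 only 1 had a record here, which could lower its level.

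Fork proteins and the nucleotide supply had 7 tested genes, of which pole-1, rpa-1 and rpa-2 rose, none fell and 4 did not pass (median log2 fold change 0.39). The catalytic subunit of DNA polymerase epsilon, pole-1, which copies the leading strand, had 70.8, 55.0 and 43.8 CPM in N2. In the double mutant it had 121, 99.6 and 91.3 CPM, all above N2, a 1.84-fold difference (log2 fold change 0.88 ± 0.20, edgeR adjusted p = 0.0139). Without N2 replicate 2 the adjusted p was 0.0536. The second subunit of that polymerase, pole-2, gave 17, 21 and 19 CPM in N2 and 24, 25 and 25 CPM in the double mutant, in whole CPM. Its groups were separate but the log2 fold change of 0.39 ± 0.14 did not pass (edgeR adjusted p = 0.0860, and 0.0498 with the block).

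Replication protein A coats single-stranded DNA at the fork, and both of its genes listed here rose. Its large subunit gene rpa-1 gave 96.8, 86.4 and 71.5 CPM in N2 and 132, 131 and 116 CPM in the double mutant (log2 fold change 0.57 ± 0.14, edgeR adjusted p = 0.0205). For rpa-2 the values were 139, 135 and 132 CPM and 165, 193 and 185 CPM (0.42 ± 0.11, edgeR adjusted p = 0.0269). Neither gene's groups overlapped, and rpa-2 had the highest level per length of the 31 genes, 139 CPM per kb in N2 and 186 CPM per kb in the double mutant. Both calls were lost when any of several single libraries was left out, with estimates then between 0.44 and 0.58 for rpa-1 and between 0.38 and 0.41 for rpa-2. The call of rpa-1 was lost without N2 replicate 2 (0.0658) or 3 (0.0558) and without double mutant replicate 1 (0.0552) or 2 (0.0656). The call of rpa-2 was lost without N2 replicate 2 (0.0915) or 3 (0.0761) and without double mutant replicate 2 (0.0972) or 3 (0.116).

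The sliding clamp PCNA, encoded by pcn-1 and much used as a marker of replicating cells, showed the smallest difference of the 31 genes. It had 85.2, 69.3 and 68.1 CPM in N2 and 76.0, 79.7 and 69.8 CPM in the double mutant. The highest single library was N2 replicate 1, the groups overlapped, and the log2 fold change was 0.02 ± 0.13 (edgeR adjusted p = 0.934). Its level was high all the same, the second highest per length of the 31 genes in both groups at 74.9 and 75.8 CPM per kb.

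The small subunit of ribonucleotide reductase, rnr-2, which makes the building blocks of DNA, gave 64.5, 53.5 and 47.7 CPM in N2 and 66.9, 71.3 and 63.1 CPM in the double mutant. Groups overlapped through N2 replicate 1, and the log2 fold change was 0.28 ± 0.14 (edgeR adjusted p = 0.186). The large subunit gene rnr-1 had no record in the tables used here. The B subunit of DNA polymerase alpha-primase, div-1, which starts new strands, had 29.0, 32.5 and 30.7 CPM in N2 and 35.1, 33.4 and 34.0 CPM in the double mutant. The separation was narrow, with a log2 fold change of 0.15 ± 0.12 (edgeR adjusted p = 0.390).

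All 3 tested mitotic kinase genes rose. Aurora A, encoded by air-1 and acting at centrosomes, had 14.4, 14.5 and 14.7 CPM in N2 and 21.4, 23.7 and 23.7 CPM in the double mutant (log2 fold change 0.66 ± 0.13, edgeR adjusted p = 0.00957). Aurora B, encoded by air-2 and part of the chromosomal passenger complex, had 12.5, 10.9 and 13.7 CPM in N2 and 17.3, 21.5 and 19.0 CPM in the double mutant (0.64 ± 0.16, edgeR adjusted p = 0.0239). The Aurora genes were thus of similar level and similar fold, 1.58 and 1.56. The call of air-1 was lost without double mutant replicate 3 (0.0599). That of air-2 was lost without N2 replicate 2 (0.0821) or without double mutant replicate 2 (0.0960) or 3 (0.0886).

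The checkpoint kinase gene bub-1, whose product sits at kinetochores, gave 51.8, 47.8 and 43.4 CPM in N2 and 80.8, 87.2 and 74.7 CPM in the double mutant. All double mutant libraries were far above all N2 libraries, and the log2 fold change was 0.76 ± 0.12 (edgeR adjusted p = 0.00345). The only record of the Polo kinase gene plk-1 was listed at 0 counts in all 6 libraries.

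At the kinetochore and centromere knl-1 and ndc-80 rose, hcp-3 did not pass, and all 3 were without overlap. The outer kinetochore scaffold gene knl-1 had 27.4, 23.1 and 21.5 CPM in N2 and 56.9, 52.4 and 48.9 CPM in the double mutant. This 2.2-fold difference was the second largest of the 31 genes (log2 fold change 1.13 ± 0.14, edgeR adjusted p = 0.00103). For ndc-80, a microtubule-binding partner of KNL-1, the values were 37.2, 34.6 and 36.4 CPM and 45.5, 47.8 and 46.3 CPM. The log2 fold change was 0.37 ± 0.11, with an edgeR adjusted p of 0.0454 that lay just inside the threshold.

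That call of ndc-80 was lost whichever single library was left out, with edgeR adjusted p from 0.0649 to 0.156, and was 0.0992 with the length trend removed under the block. Without a filter on low counts it was 0.114. Its exons overlap 71 bases of ttr-39 on the opposite strand, so part of its reads is uncertain. The centromeric histone H3 gene hcp-3, the worm's CENP-A, had 16.3, 18.2 and 16.4 CPM in N2 and 20.3, 24.1 and 21.2 CPM in the double mutant. Its log2 fold change of 0.36 ± 0.14 (edgeR adjusted p = 0.1) was nearly that of ndc-80, on the other side of the threshold.

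**Figure D2:**
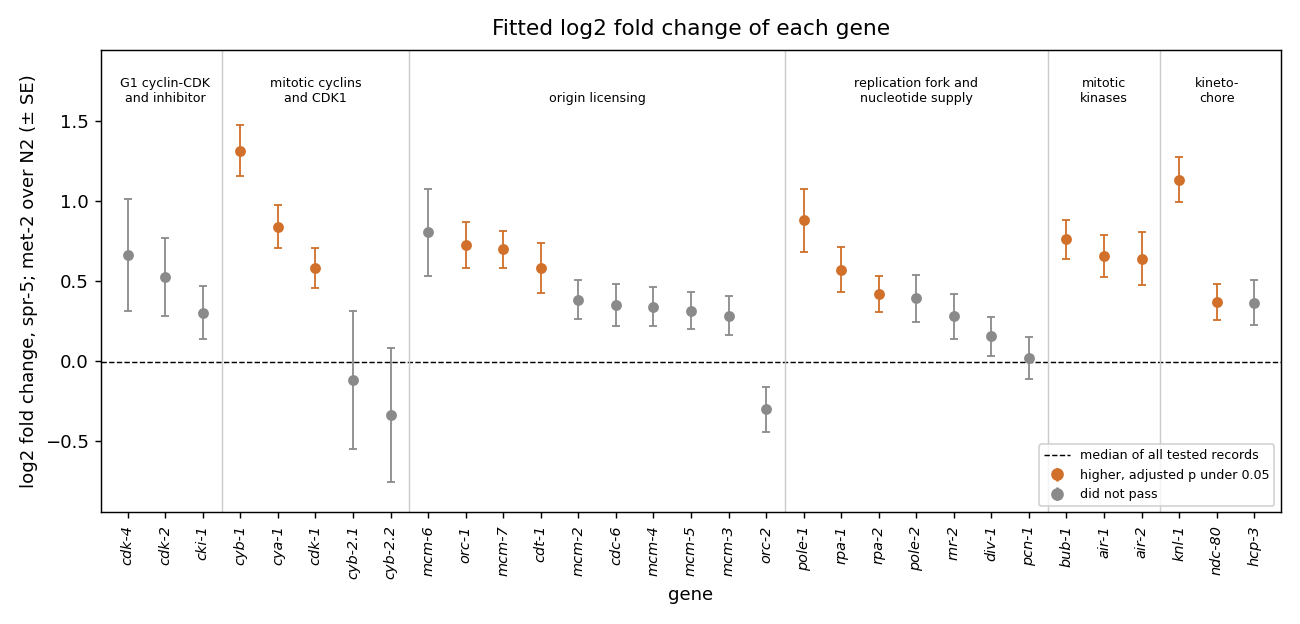
Log2 fold change of each tested gene in spr-5; met-2 over N2 with its SE, grouped by role, with the genes that passed the test marked apart from those that did not. Estimates run from -0.34 for cyb-2.2 to 1.32 for cyb-1, and 28 of the 31 lie above 0.

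Set side by side, 6 of 17 tested replication genes rose (35.3%, median log2 fold change 0.38), 3 of 8 genes of cyclins, their kinases and inhibitor (37.5%, median 0.55), and 5 of 6 genes of mitotic kinases and the kinetochore (83.3%, median 0.65). None of the 3 classes held a gene that fell. With the replicate block 18 of the 31 genes rose, against 18.9% of all tested records. The 4 genes gained, mcm-2, mcm-4, mcm-6 and pole-2, are all replication genes, so that 10 of the 17 (58.8%) rose in that fit, while the counts of the other classes stayed at 3 of 8 and 5 of 6. No test was made of the differences between classes, whose ranges overlapped: -0.30 to 0.88 for replication, -0.34 to 1.32 for cyclins and 0.36 to 1.13 for mitotic kinases and kinetochore. The median of the replication genes was 0.28 when the length trend was removed under the block. Longer genes had higher estimates over all tested records with a length, with a median of -0.21 in the shortest and 0.16 in the longest of 4 equal groups by exonic length, and the median exonic length was 1.9 kb for the 31 genes against 1.28 kb over those records. With that trend removed under the block 14 of the 31 genes rose and the median was 0.40. The share of all tested records that rose in that fit is not given here. Set against the block alone, with its 18 rising genes, removing the trend lost mcm-2, mcm-4, pole-2, cdt-1 and ndc-80 and gained cki-1 (edgeR adjusted p = 0.0362).

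Ratios between genes of partner proteins were compared for subunits of the same complex and for the kinetochore genes with the centromeric histone gene hcp-3. Of 21 such ratios, on the log2 scale of CPM per kb, 7 had no overlap between groups. These 7 are not independent, since some share mcm-7 or knl-1, and no share for ratios of other gene pairs is given here. Exact permutation tests of 3 against 3 libraries (two-sided) cannot give a p below 0.1, and after adjustment over the 21 ratios the lowest was 0.3. The ratio of orc-1 to orc-2 was -0.86, -1 and -1.43 in N2 and -0.04, -0.07 and -0.08 in the double mutant. Thus orc-1 stood well below the orc-2 level in N2 and close to it in the double mutant, with a difference of 1.03 between the group means.

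The ratio of knl-1 to ndc-80 moved from a mean of -1.26 in N2 to -0.49 in the double mutant, and that of knl-1 to hcp-3 from -1.09 to -0.31. Neither overlapped between groups, whereas the ratio of ndc-80 to hcp-3 had a mean of 0.18 in both. Ratios of mcm-2, mcm-3, mcm-4 and mcm-5 to mcm-7 were lower in the double mutant by 0.32 to 0.41, all without overlap. Ratios of the same 4 genes to mcm-6 had larger mean differences, from -0.55 to -0.45, and were lower in all 3 same-numbered pairs, but their groups overlapped. Those among mcm-2, mcm-3, mcm-4 and mcm-5 overlapped, with mean differences from -0.06 to 0.10. For pole-1 over pole-2 the means were -0.23 and 0.27, and for rpa-1 over rpa-2 they were -1.83 and -1.67. Groups overlapped in both, and both ratios were higher in the double mutant in all 3 same-numbered pairs.

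**Figure D3:**
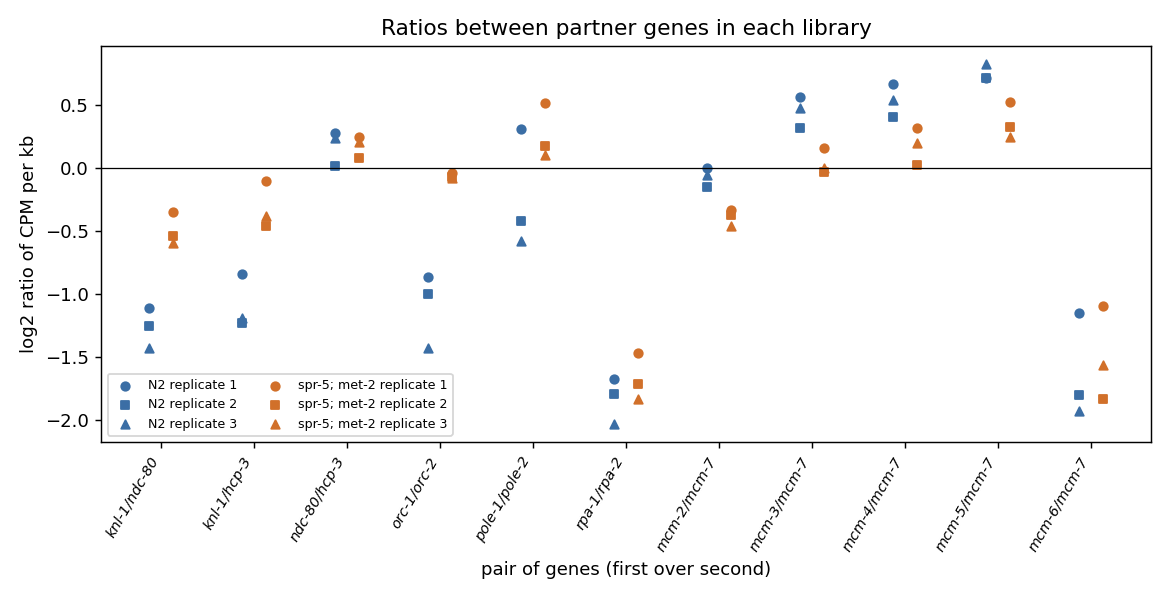
Log2 ratio of CPM per kb between partner genes in each library, with N2 and spr-5; met-2 libraries as separate points. The orc-1 to orc-2 ratio lies between -1.43 and -0.86 in N2 and between -0.08 and -0.04 in the double mutant, while the ndc-80 to hcp-3 ratio has a mean of 0.18 in both groups.

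The authors' deposited table gave a similar set of calls. At an adjusted p below 0.05 it held 15 of the 31 genes as higher and none as lower, where 13% and 10.6% of its 17918 records with an adjusted p were higher and lower. It shared 14 of its 15 genes with the edgeR calls, and its additional gene was mcm-6, with a log2 fold change of 0.78 and an adjusted p of 0.0275 in the authors' deposited table.

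Other genes of the same processes were read from 4 lists written for comparison, with 87 tested genes that are not among the 36. Of these 35 rose and 1 fell, and the median log2 fold change was 0.42, equal to that of the 31 genes. The lists were chosen with earlier results of these data known, so this match is no independent check. Of 11 tested regulators of G1/S and of cyclin-CDK activity 5 rose and none fell (median 0.43). The largest of these rises was that of cdc-25.1, whose phosphatase activates CDK1, from 11.7, 13 and 10.8 CPM in N2 to 35.7, 31.3 and 32.0 CPM (log2 fold change 1.48 ± 0.14, edgeR adjusted p = 0.000282). Its counterpart wee-1.3, an inhibitory kinase of CDK1, also rose (0.64 ± 0.16, edgeR adjusted p = 0.0193). The call of wee-1.3 was lost without N2 replicate 3 (0.0535) and without double mutant replicate 2 (0.0776) or 3 (0.0756).

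Among G1/S regulators the retinoblastoma-family gene lin-35, a repressor of cell cycle genes, had 30.4, 30.7 and 30.7 CPM in N2 and 67.8, 102 and 69.9 CPM in the double mutant. It rose by 1.39 ± 0.18 on the log2 scale (edgeR adjusted p = 0.00113), with replicate 2 the highest. The E2F gene efl-1 gave 20.2, 16.7 and 14.4 CPM in N2 and 24.6, 29.3 and 24.2 CPM in the double mutant (0.61 ± 0.17, edgeR adjusted p = 0.0358). That call was lost without any single library other than N2 replicate 1, with adjusted p from 0.0594 to 0.128. The gene of the E2F partner DP, dpl-1, had a log2 fold change of 0.43 ± 0.15 (edgeR adjusted p = 0.0709, and 0.039 with the block). The most abundant gene of the list per length, skr-1, which encodes a core subunit of SCF ubiquitin ligases, had -0.32 ± 0.11 (edgeR adjusted p = 0.0739).

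Of 31 other tested replication genes 12 rose and 1 fell (median 0.36). The TopBP1 gene mus-101, which acts in origin firing and the DNA damage response, had 45.3, 40.1 and 38.2 CPM in N2 and 142, 137 and 146 CPM in the double mutant (log2 fold change 1.78 ± 0.12, edgeR adjusted p = 4.24e-05). DNA ligase gene lig-1 rose by 1.12 ± 0.11 (edgeR adjusted p = 0.000315), and ctf-4, of the replisome, by 0.61 ± 0.12 (edgeR adjusted p = 0.00726). The gene with the highest level per kb among those with a known length, ddb-1, an adaptor of the CUL-4 ubiquitin ligase, rose by 0.42 ± 0.12 (edgeR adjusted p = 0.0342). The call of ddb-1 was lost without any single library other than N2 replicate 1 (adjusted p from 0.0639 to 0.104) and with the length trend removed under the block (0.195). The gene that fell, named after its values were seen, was the topoisomerase I gene top-1. It had 6.05, 4.95 and 5.66 CPM in N2 and 2.95, 3.48 and 2.38 CPM in the double mutant (-0.92 ± 0.23, edgeR adjusted p = 0.0224). The call of top-1 was lost without double mutant replicate 1 (0.0564) or 3 (0.109) and when scaled by library size only (0.0652).

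Of 19 other kinetochore and checkpoint genes 6 rose and none fell (median 0.42). The gene rod-1, of the complex that recruits dynein and checkpoint proteins, had 43.7, 28.7 and 27.2 CPM in N2 and 105, 100 and 79.9 CPM in the double mutant (log2 fold change 1.52 ± 0.21, edgeR adjusted p = 0.00166). The CENP-C gene hcp-4 rose by 0.85 ± 0.14 (edgeR adjusted p = 0.00427), and the CENP-F-like gene hcp-2 by 0.70 ± 0.15 (edgeR adjusted p = 0.0126). The checkpoint gene bub-3, the most abundant of this list per length, had -0.15 ± 0.12 (edgeR adjusted p = 0.425), while its partner bub-1, described above, rose.

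Among 26 other mitosis genes 12 rose and none fell (median 0.48). The centrosome scaffold gene spd-5 had the largest change of all 4 lists, from 77.2, 69.4 and 59.9 CPM in N2 to 360, 379 and 337 CPM (log2 fold change 2.38 ± 0.14, edgeR adjusted p = 2.21e-05). The midzone microtubule bundler spd-1 rose by 1.37 ± 0.15 (edgeR adjusted p = 0.000457), and the separase gene sep-1 by 1.23 ± 0.16 (edgeR adjusted p = 0.00134). Centrosomal tac-1, the most abundant per length, had -0.29 ± 0.16 (edgeR adjusted p = 0.230).

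**Figure D4:**
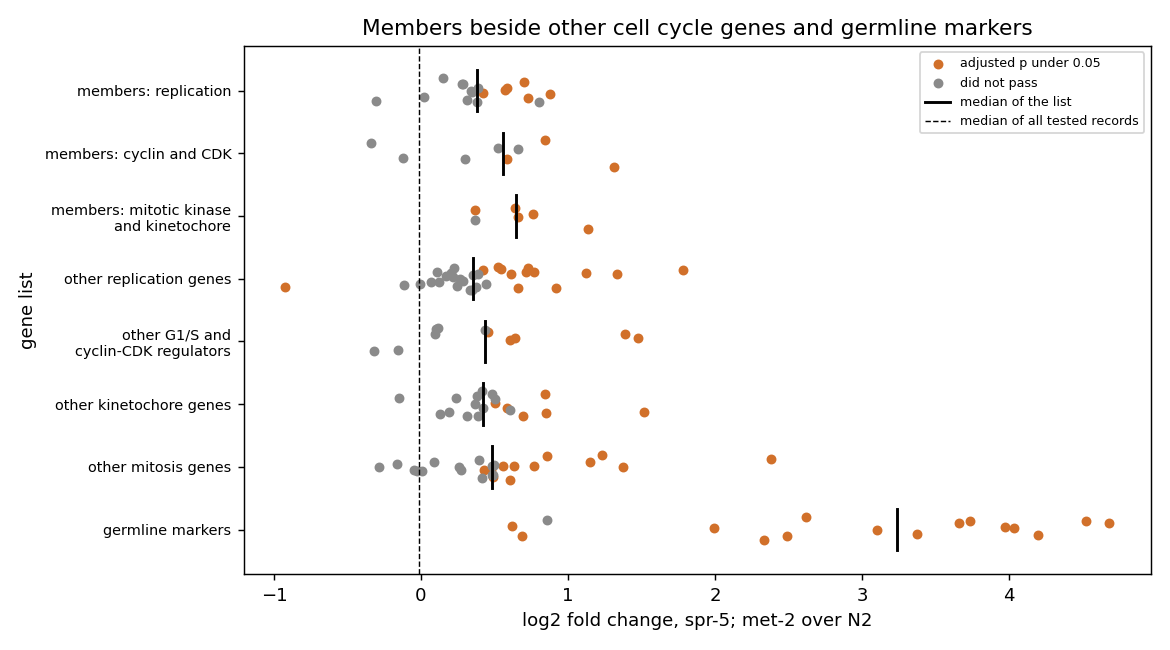
Log2 fold change in spr-5; met-2 over N2 of the tested genes in the 3 classes and in the 4 lists of other cell cycle genes and the germline markers, 1 point per gene with the median of each group. Medians of the cell cycle groups lie between 0.36 and 0.65, and that of the germline markers is 3.24.

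Markers of germ cells moved with these genes. Of 20 germline markers 16 were tested, 15 rose and none fell (median log2 fold change 3.24). Their summed level was 173 to 221 CPM in the N2 libraries and 1865 to 1966 CPM in the double mutant libraries. Of the untested markers, pgl-1 and him-3 were listed at 0 in all libraries, and nos-2 and meg-1 had too few counts to be tested. In whole CPM the Piwi gene prg-1 had 31, 27 and 25 in N2 and 646, 639 and 623 in the double mutant. The Vasa-related gene glh-1 had 59.8, 34.6 and 40.4 CPM and 569, 596 and 534 CPM, and the Y-box gene cey-2 9.18, 7.92 and 21.4 CPM and 236, 166 and 203 CPM. No cell cycle gene of the 31 changed by as much as the marker median, and cyb-1, at 1.32, came closest. The part of these markers in the rises of cell cycle genes was not tested.

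By list median, markers of other tissues moved less than the germline markers, though single genes moved by more than any of the 31 genes. The median log2 fold changes were -0.11 for neuron, -0.33 for body wall muscle and -0.38 for pharynx markers. For intestine and epidermis markers they were 0.15 and 0.59. Summed levels in N2 and double mutant libraries were 28.4 to 47.3 and 28 to 34.5 CPM for 5 tested neuron markers, 8074 to 14920 and 9284 to 11296 CPM for 3 body wall muscle markers, and 10788 to 16717 and 8502 to 11379 CPM for 4 pharynx markers, of which tnt-4 fell, a call lost without any single library other than N2 replicate 3 (edgeR adjusted p from 0.0617 to 0.126). Of the 5 intestine markers, summing to 1139 to 1543 and 1350 to 1426 CPM, elt-2 and ifb-2 rose and ges-1 fell. Most of these sums came from act-5, with means of 1154 CPM in N2 and 1280 CPM in the double mutant. The log2 fold change was 1.54 for elt-2 (edgeR adjusted p = 0.00303) and -1.415 for ges-1 (edgeR adjusted p = 0.00576). The call of ifb-2 was lost whichever library was left out (edgeR adjusted p from 0.0709 to 0.153) and passed in 6 of its 16 alternatives. Collagen genes of the epidermis list were highest in replicate 2 of both groups, with list sums of 181 CPM in N2 and 278 CPM in the double mutant, and elt-3 was at 0. Vitellogenin genes, markers of adults, summed to 72.5 CPM in N2 replicate 3 and 14.7 CPM in double mutant replicate 2 and to at most 1.39 CPM in the other 4 libraries. The part of replicate 2 and of stage in the results was not tested, beyond the 3 rising genes that remained without replicate 2. As for the mutated genes, spr-5 counts were higher in the double mutant (116 to 129 against 47.5 to 66.2 CPM, log2 fold change 1.19, edgeR adjusted p = 0.00132) and those of met-2 lower (-0.43, edgeR adjusted p = 0.029). Counts over whole transcripts do not show whether a mutant allele makes protein, so they check no label.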

How the data were processed

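RNA-seq counts of 3 N2 and 3 spr-5; met-2 libraries were analysed, grouped and numbered by their titles. The deposited count tables give unnormalized whole numbers of reads for each RefSeq transcript. HISAT2 is named as the aligner per the file headers, where L4440, a vector name absent from the labels, also appears. The submitters' processing notes list FastQC, Trimmomatic, featureCounts, DESeq2 2.11.40.2 and ce10 without stating roles or order. How the counting treated strand and reads shared between records is not given in the sources used here. Per the file headers, the comparison table deposited by the authors has columns for a base mean signal, the log2 fold change, its error and the Wald statistic (2 scores without a fixed range), and the raw and adjusted p-value.

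Records were named from a RefSeq gene table of assembly WBcel235. The 4758 unnamed of 50832 records stayed in library sizes and tests, and named records held 86.6% to 87.2% of counts. Total counts ranged from 17062557 to 25368364. After edgeR's filterByExpr (minimum count 10, minimum total 15) 14557 records were tested with edgeR's two-sided quasi-likelihood test (edgeR 4.0.16, R 4.3.3), with TMM scaling, Benjamini-Hochberg adjustment over all of them and a threshold of 0.05. The code was tested on simulated data. CPM are TMM-normalised, and a gene is represented by its most abundant record. Exonic lengths and overlaps came from an annotation of WBcel235, a build other than ce10, so no coordinates are given. Replicates differed beyond counting noise (chi-square per degree of freedom 25.1 to 60.7).

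Same-numbered libraries deviated together (correlations of 0.491, 0.388 and 0.214 for numbers 1, 2 and 3, each above 0.1), so the numbers were taken to pair the libraries. The main test had no replicate block and did not use this pairing. Only the fits named as having the block used it. Alternatives were DESeq2 size factors, library size only, no count filter, at least 1 CPM in 3 libraries, DESeq2 1.42.0, limma voom (limma 3.58.1), the replicate block, counts summed per gene and each library left out. Removing the length trend under the block, and leaving out replicate 2 of both groups, were added after the data were seen. From the other lists the 3 genes with the smallest adjusted p, the most abundant gene per length, lin-35, efl-1 and dpl-1 are named, and of the germline markers the 3 with the highest CPM. The 36 genes, the lists and the tests were chosen with earlier results of these data known.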

Additional observations from a re-analysis of the deposited data

How the results depend on the processing

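Over 16 alternatives each, the 31 genes gave 496 results: 427 kept direction and side of the threshold, 38 lost and 23 gained a call, and 8 changed sign. Of the 14 rising genes cya-1, cyb-1 and knl-1 passed in all 16, and the other 11 missed in at least 1. The replicate block gave 18 rising genes, adding mcm-2, mcm-4, mcm-6 and pole-2, and changed no other call among the 31. Sign changed for cyb-2.1 with library size only (0.08) and, with single libraries left out, for cyb-2.1 (range -0.51 to 0.21, positive without N2 replicate 3 or double mutant replicate 1), cyb-2.2 (-0.68 to 0.10, positive without N2 replicate 3) and pcn-1 (-0.06 to 0.11, negative without N2 replicates 2 or 3 or double mutant replicate 2), and for pcn-1 without replicate 2 of both groups (-0.07). With library size only 25 genes rose, the medians of cyclin, mitotic and replication genes were 0.78, 0.87 and 0.60, 54 genes of the other lists rose and 0 fell, and 827 records fell. With each library left out in turn 9 to 14 genes rose, the cyclin median was 0.38 to 0.60, the replication median 0.31 to 0.42, and in the other lists 17 to 33 genes rose and 0 to 1 fell. Over all records 2210 to 3849 were then called, 1410 to 2046 rising and 800 to 1803 falling, against 3773, 2075 and 1698. Without replicate 2 of both groups 3 genes rose, 9 of the other lists rose and 0 fell, and 1501 records were called, 1041 rising and 460 falling. DESeq2 called 2 falling genes in the other lists, and the length trend removed under the block gave a replication median of 0.28. The cause was not tested in any of these cases, beyond fewer libraries where some were left out. The lowest levels, those of cdk-4, cyb-2.1 and cyb-2.2, had the largest SEs (0.35, 0.43 and 0.42).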
